A study of Homo sapiens with 9 samples.

Results

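Chromatin accessibility at the 10 genes that encode the cohesin subunits and their main regulators was followed across 9 ATAC-seq peak lists of K562 cells. The genes were SMC1A, SMC3, RAD21, STAG1, STAG2, NIPBL, MAU2, WAPL, PDS5A and PDS5B, 10 of 20098 protein-coding genes in the annotation. A peak was assigned to one of them when its centre fell between 10 kb before and 10 kb after the gene, on build GRCh37. STAG2 was ended before the neighbouring genes that its longest annotated model runs over, which left 142939 bp. K562 is an established human line from a chronic myeloid leukaemia with erythroid features. ATAC-seq marks open chromatin through the insertion of adapters by Tn5 transposase, and the labels give 50000 cells per replicate and single-end reads of 100 bp. Each genotype has 3 libraries: the parental cells, which are wild type for STAG2; 1 line heterozygous for STAG2 R614*; and 1 line homozygous for it, whose titles also call it null. R614* replaces an arginine codon with a stop. Both mutant lines were edited with CRISPR-Cas9, and each mutant genotype is 1 line. The homozygous cells are described as adherent and released with trypsin, so genotype, line and adherent growth cannot be told apart. The labels do not say that the replicates came from separate cultures, and p-values then measure only the spread between these libraries, which may be technical.

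Cohesin is a ring that encircles DNA. SMC1A and SMC3 form its long arms, RAD21 closes it, and either STAG1 or STAG2 binds RAD21. NIPBL and MAU2 load the ring and, with its ATPase, drive the extrusion of chromatin loops, which CTCF bound to DNA can halt. WAPL, together with PDS5A or PDS5B, releases the ring. STAG2 is recurrently mutated in myeloid leukaemia, where STAG1 can stand in for it.

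The lists held between 181579 and 319986 intervals, with a median of 223184, and each carries the values of the authors' peak caller and no read counts, so the depth of a library is unknown. Because lengths differed, each list was reduced to its strongest peaks: those with a −log10 p at least as high as that of the peak in place 50000. Between 21 and 34 of these per library, with a median of 33, lay at the 10 genes, and between 47 and 108 of the full lists. Merged over the libraries, the strongest peaks gave 107091 regions, of which 49 were at the cohesin genes. Some lists were not independent. Wild type replicate 3 and heterozygous replicate 1 shared 46.0% of the intervals of the shorter list to the base, including 32 intervals at these genes, and wild type replicates 1 and 2 shared 23.2%, including 12. Heterozygous replicates 2 and 3 shared 1.17%, and the other 33 pairs between 0.223% and 0.351%. Among 8 erythroid marker genes, between 5 and 6 per library had one of the strongest peaks within 1 kb of a start site. GATA1 and KLF1 had none in any of the 9, whereas TAL1, LMO2 and HBE1 had one in all 9. Of 10 marker genes of other lineages, between 2 and 3 had one, and EPCAM and COL1A1 had it in all 9. A weaker peak can reflect fewer cells with open chromatin or less opening in each cell, and bulk libraries cannot tell these apart.

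The mutated codon and the regions on which the results turn are shown first. The arginine codon of STAG2 that R614* changes, in capitals, lies at X:123197716-123197718 in exon 20 of 35 of the canonical transcript. The stretch shown is the first part of that exon on the plus strand of the GRCh37 reference, X:123197698-123197748.
STAG2 codon: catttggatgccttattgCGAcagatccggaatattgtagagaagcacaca
Every library had 1 peak of its full list on this exon. Its window covered the codon in homozygous replicates 1 and 3, and in the other 7 libraries it began between 7 and 42 bp after the first base of the codon. The rank of that peak was 28323, 43087 and 25816 in the wild type libraries, 22750, 44458 and 16743 in the heterozygous, and 39349, 57279 and 37041 in the homozygous. Rank 1 is the strongest peak of a list. The peak was thus among the strongest in 8 libraries and outside them in homozygous replicate 2.

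The promoters of the 2 STAG genes are shown because STAG2 is the gene mutated in both mutant lines and STAG1 encodes the alternative subunit. Each sequence is 200 bp of GRCh37 read along the gene's own strand, inside the promoter region of that gene. STAG2 is at X:123094160-123094359 on the plus strand and STAG1 at 3:136471246-136471445 on the minus strand. Capitals mark matches to motifs of CTCF and of ETS factors (CCGGAA on either strand).
STAG2 promoter: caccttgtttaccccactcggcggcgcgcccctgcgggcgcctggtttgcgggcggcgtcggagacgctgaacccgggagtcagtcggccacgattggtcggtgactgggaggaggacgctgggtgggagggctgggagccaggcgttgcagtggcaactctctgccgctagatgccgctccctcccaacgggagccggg
STAG1 promoter: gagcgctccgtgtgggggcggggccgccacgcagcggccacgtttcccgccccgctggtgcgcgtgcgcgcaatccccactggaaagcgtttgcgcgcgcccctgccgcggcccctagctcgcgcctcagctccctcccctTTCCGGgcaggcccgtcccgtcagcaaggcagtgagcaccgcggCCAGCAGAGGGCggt
The STAG1 stretch has a match to the CTCF core near its end and an ETS match before it, and the STAG2 stretch holds neither.

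Some of the regions at NIPBL, PDS5B, STAG1 and MAU2 that were present in all 3 libraries of one genotype and in 0 of 3 of another are shown next, each as 200 bp around its summit. They are NIPBL at 5:36870625-36870824, PDS5B at 13:33213746-33213945 and 13:33224961-33225160, and MAU2 at 19:19453655-19453854, all on the plus strand, and STAG1 at 3:136361591-136361790 on the minus strand. Capitals mark matches to CTCF, to GATA factors (GATA between A or T and A or G) and to RUNX factors (TGTGGT or TGCGGT), on either strand.
NIPBL upstream flank: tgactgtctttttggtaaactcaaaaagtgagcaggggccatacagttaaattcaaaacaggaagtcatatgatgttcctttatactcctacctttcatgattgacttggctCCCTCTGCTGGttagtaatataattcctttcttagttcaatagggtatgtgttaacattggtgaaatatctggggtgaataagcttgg
PDS5B intron at 53.3 kb: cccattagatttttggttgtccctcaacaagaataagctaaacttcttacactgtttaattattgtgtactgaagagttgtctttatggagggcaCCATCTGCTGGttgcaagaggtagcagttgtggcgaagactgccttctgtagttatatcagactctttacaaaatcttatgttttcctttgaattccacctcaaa
PDS5B intron at 64.5 kb: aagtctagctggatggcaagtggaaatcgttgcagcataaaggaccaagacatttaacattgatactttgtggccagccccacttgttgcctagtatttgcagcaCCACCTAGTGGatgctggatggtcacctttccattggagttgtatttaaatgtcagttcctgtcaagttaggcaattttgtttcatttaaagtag
STAG1 intron at 109.6 kb: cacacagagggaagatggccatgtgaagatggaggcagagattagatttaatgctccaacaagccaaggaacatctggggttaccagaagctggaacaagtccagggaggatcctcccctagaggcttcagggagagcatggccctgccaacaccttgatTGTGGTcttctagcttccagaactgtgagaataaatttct
MAU2 intron at 22.1 kb: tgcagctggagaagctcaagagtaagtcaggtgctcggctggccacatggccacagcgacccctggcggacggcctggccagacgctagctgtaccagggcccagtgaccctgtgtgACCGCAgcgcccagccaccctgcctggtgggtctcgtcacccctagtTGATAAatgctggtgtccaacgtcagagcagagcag
The distance in kb is from the start of the gene to the summit. The NIPBL region and the PDS5B regions at 53.3 and 64.5 kb each hold a match to a shortened CTCF core. The STAG1 region holds a RUNX match, and the MAU2 region, which overlaps an exon at one edge, holds a GATA and a RUNX match.

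All 10 genes had one of the strongest peaks at a promoter in every library. A promoter region was one within 1 kb of a start site of a coding transcript, and there were 11, since STAG2 has 2. Several also lay within 1 kb of a start of another gene, such as RIBC1 at SMC1A and SUGP1 at MAU2. The 11 were present in all 9 libraries, compared with 54.1% of all 15459 regions near a coding start. The other 38 regions comprised 24 in introns, 3 in exons, 10 in the downstream flank and 1 in the upstream flank. Only 3 of these 38 were present in all 9 libraries, against 10962 of all 91632 other regions. The 3 were the SMC3 downstream flank at 42.7 kb, the STAG1 exon at 408.4 kb and the MAU2 downstream flank at 46.2 kb. Of the 38, 9 were present in 1 library, compared with 33.4% of all other regions.

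**Figure D1:**
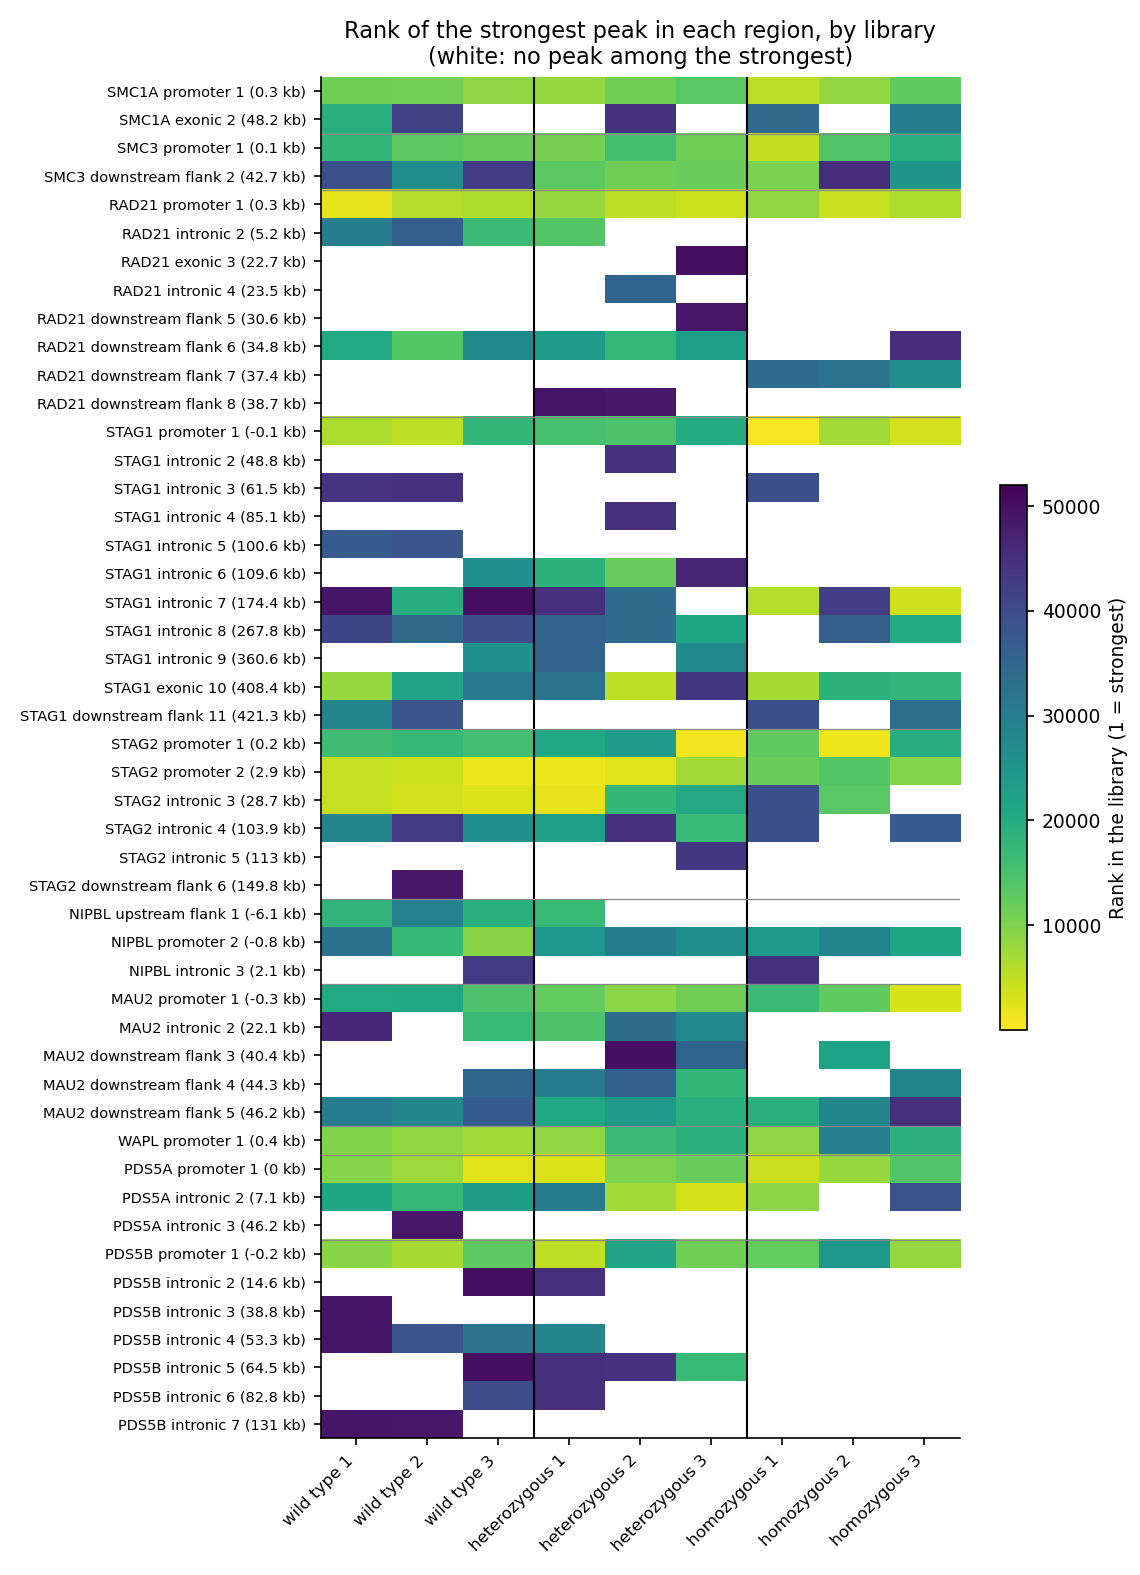
Rank of the strongest peak in 48 of the 49 regions (rows, with the distance from the gene's start to the summit in kb) for each of the 9 libraries (columns). Yellow is the strongest, dark blue the weakest, and white means no peak among the strongest. The 11 promoter rows are filled in all 9 columns, while many of the other rows are white, most of all in the 3 homozygous columns.

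Away from promoters, fewer of these regions were present in the homozygous libraries. The 38 regions gave 20, 20 and 21 in the wild type libraries, 20, 20 and 17 in the heterozygous and 12, 8 and 12 in the homozygous. The 3 homozygous values lay below the other 6. That order depends on the length of the lists. Among the 20000 strongest peaks, those at the 10 genes, promoters included, numbered 13, 14 and 16 in wild type and 16, 10 and 13 in homozygous libraries, which overlap. In the full lists they numbered 61, 83 and 91, then 73, 62 and 68, then 55, 47 and 108, so homozygous replicate 3 was the highest of all. Over all other regions of the genome, the same libraries had 39314, 38521 and 39355, then 37407, 37391 and 37467, then 37279, 36762 and 37677. Those totals differed far less. Each list was cut at the same place, which by itself holds such totals close, so they are no yardstick for the 38 regions. The genes were chosen with earlier results known, and the count is a description.

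Gene by gene, the number of strongest peaks was tested for every protein-coding gene with at least 1 such peak, 18547 in all. The spread of the 3 genotype means was compared with that under every 1 of the 280 ways to assign the libraries to 3 groups of 3, an exact permutation test, adjusted by the Benjamini-Hochberg method. Its smallest p is 0.00357, and for any gene to pass the adjustment 7.14% of all genes would have to reach that p. By this exact permutation test 0 of the 10 genes and 0 of 18547 (0%) passed an adjusted p of 0.05. At an unadjusted exact permutation p under 0.05 there were 2 of the 10, RAD21 and PDS5B, against 7.94% of all genes. With tied peaks left out, the exact permutation p of PDS5B was 0.0571. With the lists that share intervals taken as 1 source, the exact permutation p of RAD21 was 0.0857. That was another comparison, of 2 groups: wild type and heterozygous sources together against the homozygous libraries. Ranked by fold enrichment the exact permutation p was 0.0857 for RAD21 and 0.111 for PDS5B. With the replicate number as a block it was 0.0556 for both, where the smallest possible exact permutation p is 0.0278. The mean of the homozygous libraries was below that of the wild type libraries at 7 of the 10 genes and above it at 0. Over all genes tested, it was below at 37.2% and above at 39.8%. The median difference was −0.50 peaks for the 10 and 0 for all genes. These directions belong to this length of list. With 20000 peaks the homozygous mean was above at SMC3, STAG1 and MAU2. With 100000 it was above at SMC3, RAD21, WAPL and PDS5A, and with full lists at SMC3, MAU2, WAPL and PDS5A. At the remaining genes it was below or equal.

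**Figure D2:**
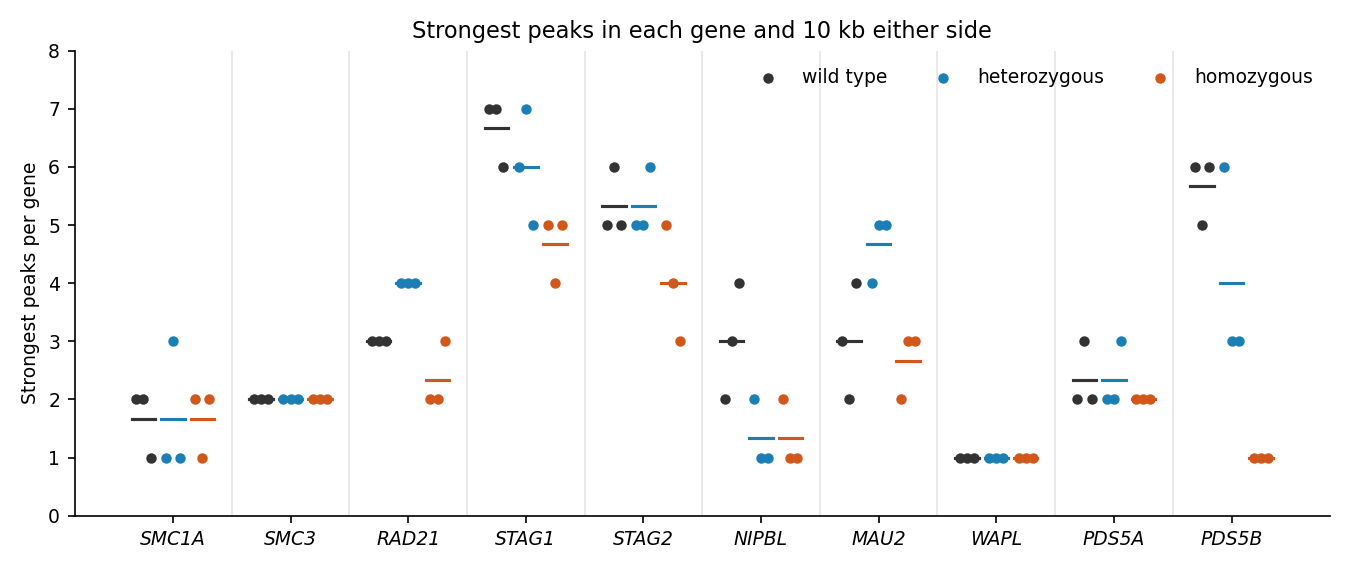
Number of strongest peaks in each gene and 10 kb either side (vertical axis) for each of the 10 genes, with 1 point per library and a bar at the mean of each genotype. At PDS5B the 3 homozygous points sit at 1 and the wild type points at 5 and 6, while SMC3 sits at 2 and WAPL at 1 in all 9 libraries.

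SMC1A, SMC3 and RAD21 make up the ring. SMC1A had 2, 2 and 1 strongest peaks in the wild type libraries, 1, 3 and 1 in the heterozygous and 2, 1 and 2 in the homozygous, and the genotypes overlapped fully (exact permutation p = 1). SMC3 had 2 in each of the 9, one at its promoter and one in the downstream flank. RAD21, whose cleavage opens the ring when sister chromatids part, had 3, 3 and 3 in wild type, 4, 4 and 4 in heterozygous and 2, 2 and 3 in homozygous libraries. The heterozygous libraries were all above the others at RAD21, with an exact permutation p of 0.0143 that became 0.512 after adjustment over all genes. That order belongs to this length of list. Among the 20000 strongest peaks RAD21 had 1, 2 and 2, then 2, 2 and 1, then 1, 1 and 1. In the full lists it had 6, 9 and 11, then 6, 8 and 8, then 9, 4 and 7. Heterozygous libraries overlapped with both other genotypes in each case.

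The regions behind the RAD21 counts differed from library to library. Its promoter region, at 8:117885733-117887477, was among the strongest everywhere. An intronic region at 8:117881528-117882032, 5.2 kb from the start, ranked 29992, 36315 and 16514 in the wild type libraries and 13944 in heterozygous replicate 1. It was outside the strongest in the other 5 libraries, and the 3 homozygous full lists held no peak there. In the downstream flank, 8:117849095-117850312 ranked 33840, 32284 and 26460 in the homozygous libraries and was not among the strongest in the other 6. Of those 6, heterozygous replicate 3 had a weaker peak there in its full list. No sequence of the RAD21 locus is shown.

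The STAG genes encode the alternative subunits that bind RAD21. STAG1 had 7, 7 and 6 strongest peaks in wild type, 6, 7 and 5 in heterozygous and 5, 4 and 5 in homozygous libraries. The wild type mean was 6.67 ± 0.577 (SD, n = 3) and the homozygous mean 4.67 ± 0.577 (SD, n = 3), and these groups did not overlap (exact permutation p over the 3 genotypes = 0.1, adjusted 0.805). Without the peaks tied at the end of the lists, the counts were 6, 7 and 5 in wild type and 5, 4 and 5 in homozygous libraries, which overlap. Among the 20000 strongest peaks the order turned, with 2, 2 and 1 in wild type and 3, 2 and 4 in homozygous libraries. STAG2 had 5, 6 and 5, then 5, 5 and 6, then 5, 4 and 3, so homozygous replicate 1 overlapped with the wild type libraries (exact permutation p = 0.179, adjusted 0.865).

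The intronic regions of the STAG genes varied between libraries. At STAG1, the region 109.6 kb into the gene (3:136361393-136362011) ranked 18289, 12151 and 46596 in the heterozygous libraries and 25816 in wild type replicate 3. Wild type replicates 1 and 2 held a weaker peak there, and the homozygous full lists held none. The STAG1 region at 174.4 kb ranked 49091, 19630 and 50089 in the wild type libraries, and 5738, 42598 and 3672 in the homozygous, which overlap; it was singled out after its values were seen. At STAG2, the region at 28.7 kb ranked 4516, 3462 and 2837 in wild type, and 1749, 17579 and 20616 in heterozygous libraries. In the homozygous libraries it ranked 39349 and 13366 and, in replicate 3, was outside the strongest. The 3 homozygous libraries were therefore all weaker there than the 3 wild type libraries, in a region singled out after its values were seen.

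The STAG2 model that ends at X:123556514 runs 319514 bp past the end used here and spans SH2D1A, TENM1 and TEX13D, and 0 of its 14 coding transcripts reach that far. Peaks in that stretch were counted apart. They numbered 14, 13 and 12 in the wild type, 11, 12 and 10 in the heterozygous and 8, 4 and 3 in the homozygous libraries. Among these strongest peaks the 3 homozygous libraries lay below the others there, whereas within the gene itself they did not. No share over comparable stretches is set beside this, so it is a description and not a trait of this stretch. In the full lists the stretch held 35, 55 and 49, then 41, 24 and 43, then 19, 20 and 31, and homozygous replicate 3 lay above heterozygous replicate 2.

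**Figure D3:**
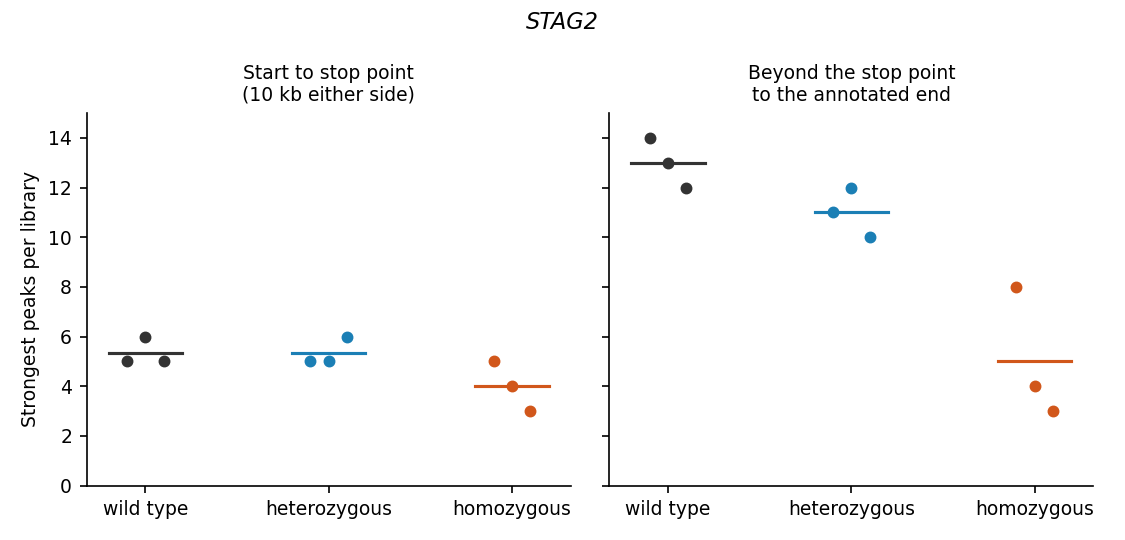
Strongest peaks per library (vertical axis) at STAG2 up to the end used here with 10 kb either side (left) and in the stretch beyond it to the annotated end (right), 1 point per library, with a bar at the mean of each genotype. On the left the homozygous points span 3 to 5 and meet the wild type points at 5; on the right they span 3 to 8, below wild type at 12 to 14.

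NIPBL and MAU2 load cohesin. NIPBL, the larger subunit of the loader, had 2, 3 and 4 strongest peaks in wild type, 2, 1 and 1 in heterozygous and 2, 1 and 1 in homozygous libraries, with overlap between them (exact permutation p = 0.107, adjusted 0.805). Its partner MAU2 had 3, 2 and 4, then 4, 5 and 5, then 2, 3 and 3. At MAU2 every heterozygous library lay above every homozygous one (exact permutation p = 0.0714, adjusted 0.675). In the full lists MAU2 had 5, 5 and 5 in heterozygous and 6, 5 and 9 in homozygous libraries, which overlap.

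The region upstream of NIPBL at 5:36870474-36870988, 6.1 kb before its start, ranked 18024, 29206 and 18856 in the wild type libraries and 16893 in heterozygous replicate 1. It was outside the strongest in the other 5, although all 9 full lists held a peak there. Its fold enrichment, as given by the authors' peak caller, was 7.15, 6.08 and 7.14 in wild type, 7.37, 4.28 and 4.35 in heterozygous and 3.61, 3.09 and 3.34 in homozygous libraries. Heterozygous replicate 1 thus stood with the wild type libraries, and it is the list that shares intervals with wild type replicate 3. The MAU2 intron at 19:19453230-19454012 ranked 14509, 33606 and 27409 in the heterozygous libraries, and 46211 and 16926 in wild type replicates 1 and 3. It was outside the strongest in wild type replicate 2 and in all 3 homozygous libraries.

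Among the release genes, PDS5B showed the largest difference of the 10 genes at this length of list. WAPL had 1 strongest peak, at its promoter, in each of the 9 libraries. PDS5A had 2, 3 and 2, then 2, 2 and 3, then 2, 2 and 2 (exact permutation p = 1). PDS5B, the paralogue that also takes part in keeping sister chromatids together, had 6, 5 and 6 in wild type, 6, 3 and 3 in heterozygous and 1, 1 and 1 in homozygous libraries. The homozygous mean was 4.67 peaks below the wild type mean of 5.67 ± 0.577 (SD, n = 3), with an exact permutation p of 0.0143 that became 0.512 after adjustment over all genes. In the homozygous libraries the peak that remained was the promoter's. Heterozygous replicate 1 again stood with wild type replicate 3; the other heterozygous libraries had 3 each.

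The size of the PDS5B difference depends on where the lists are ended. Of the 17 wild type peaks, 8 had a −log10 p equal to that of the last peak kept, a value shared by 5309, 3875 and 3687 peaks in wild type replicates 1 to 3. In the other libraries at most 163 peaks shared it. Without tied peaks PDS5B had 2, 4 and 3 in wild type, 6, 3 and 3 in heterozygous and 1, 1 and 1 in homozygous libraries, a difference of −2.0 peaks with an exact permutation p of 0.0571. The homozygous libraries still lay below the other 6. Among the 20000 strongest peaks the counts were 1, 1 and 1 in wild type and 1, 0 and 1 in homozygous libraries. In the full lists they were 8, 12 and 11 in wild type and 3, 7 and 14 in homozygous libraries, which overlap. There the difference of −2.33 peaks was exceeded in size at STAG1 (−5.67), STAG2 (−2.67) and PDS5A (2.67, the homozygous mean being higher), and among the 20000 strongest that of −0.333 was exceeded in size at NIPBL (−1.67), STAG1 (1.33), RAD21 (−0.667) and MAU2 (0.667).

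The 7 intronic regions of PDS5B had 0 strongest peaks in the homozygous libraries. They were thus listed through peaks of the other libraries alone, some of them only through tied wild type peaks. Some had a weaker peak in a homozygous full list. No share over all regions is set beside this, so the 0 is a description. The region at 13:33213591-33214114, 53.3 kb from the start, ranked 49091, 38240 and 31989 in the wild type libraries and 28303 in heterozygous replicate 1, and the homozygous full lists held no peak there. The region at 13:33224794-33225317, 64.5 kb from the start, ranked 44786, 44458 and 16743 in the heterozygous libraries and 50089 in wild type replicate 3. Homozygous replicates 2 and 3 held a weaker peak there.

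Set side by side, presence in all 3 libraries of one genotype and in 0 of 3 of another called few regions. Against wild type, 1 of 42 member regions was in homozygous libraries only, the RAD21 downstream flank at 37.4 kb, with 2.54% of all regions called in that direction. In wild type only were 4 of 42, among them the RAD21 intron at 5.2 kb, the NIPBL upstream flank and the PDS5B intron at 53.3 kb, where the share over all regions was 3.64%. With tied peaks left out, the 4 became 2, the RAD21 intron and the NIPBL flank. The PDS5B intron at 53.3 kb was then lost, since its peak in wild type replicate 1, at rank 49091, was a tied one. Between heterozygous and wild type libraries 0 of 48 differed in either direction, against 0.268% of all regions in heterozygous only and 0.595% in wild type only. Between homozygous and heterozygous libraries, 1 of 44 was in homozygous only, the RAD21 flank again, against 3.17%, and 3 of 44 were in heterozygous only, at STAG1, MAU2 and PDS5B, against 3.41%. No promoter was among them. A comparison of 3 against 3 libraries cannot give an exact two-sided permutation p under 0.1, so these counts carry no test.

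The count of 0 between heterozygous and wild type libraries rests on the lists that share intervals. Without wild type replicate 3, 3 of 47 regions were in heterozygous only (3.25% of all regions) and 4 of 47 in wild type only (7.08%). Without heterozygous replicate 1, 1 of 48 was in heterozygous only (2.89% of all regions) and 3 of 48 in wild type only (2.66%). Those 3 were the RAD21 intron at 5.2 kb, the NIPBL upstream flank and the PDS5B intron at 53.3 kb, which were also absent from the strongest peaks of the homozygous libraries. Fewer libraries in a group make the rule easier to meet, for all regions as for these.

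Counts per gene that did not overlap between genotypes were also set against all genes. Homozygous libraries lay wholly below wild type at 2 of the 10 genes, PDS5B and STAG1, compared with 6.13% of all genes, and wholly above at 0, compared with 5.05%. Without tied peaks 1 of the 10, PDS5B, was wholly below, since the STAG1 counts then overlap. Heterozygous libraries lay wholly above wild type at RAD21 (0.598% of all genes) and wholly below at 0 (1.44%). Homozygous libraries lay wholly below heterozygous at MAU2, PDS5B and RAD21 (5.61%) and wholly above at 0 (5.32%).

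The promoter peaks were present throughout but varied in rank, with no genotype difference past the threshold. The rank of the strongest peak within 1 kb of a start site was tested in the same way for 14020 genes. By that exact permutation test 0 of the 10 and 0 of 14020 (0%) passed after adjustment, and 0 of the 10 reached an unadjusted exact permutation p under 0.05, compared with 13.7% of all genes. By rank, STAG2 and RAD21 had the strongest promoters, with medians of 2276 and 5839 over the 9 libraries, and NIPBL the weakest, with 24595. Values of joined intervals are averages, so a broad promoter such as that of NIPBL, 2858 bp, may rank lower. STAG2 takes the better of its promoter regions.

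At STAG2 the promoter ranked 4507, 3993 and 1375 in wild type, 1265, 2276 and 910 in heterozygous and 11895, 1398 and 9715 in homozygous libraries. Homozygous replicate 2 was inside the wild type range, and the others were weaker (exact permutation p = 0.121, adjusted 0.476). The 2 STAG2 promoter regions differed: the one 2.9 kb into the gene, at X:123096626-123097314, ranked 4507, 3993 and 1375 in wild type but 11895, 14010 and 9715 in homozygous libraries, with no overlap. The one at the first start, X:123093341-123096205, ranked 15921, 17066 and 15628 in wild type and 12609, 1398 and 19580 in homozygous libraries, with overlap. The difference at the former was seen only after its values were known and has no test.

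At STAG1 the promoter ranked 6494, 5007 and 17667 in wild type, 15064, 14513 and 19787 in heterozygous and 592, 7180 and 3489 in homozygous libraries (exact permutation p = 0.0857, adjusted 0.421). It was stronger in every homozygous library than in every heterozygous one, as were 12.9% of all promoters tested, and weaker at 0 of the 10 genes, compared with 7.9%. Against wild type the homozygous ranks overlapped. The MAU2 promoter region also holds or adjoins a start of SUGP1, so its rank does not belong to MAU2 alone. At MAU2 the ranks were 20391, 20996 and 14452 in wild type and 12434, 9109 and 11348 in heterozygous libraries, without overlap, as at 5.07% of all promoters. The opposite direction held for 0 of the 10 and for 4.19% of all promoters. Between homozygous and wild type libraries 0 of the 10 promoters were wholly stronger, compared with 14.5% of all, and 0 wholly weaker, compared with 7.92%. WAPL spanned the widest range among the release genes, from 7472 in wild type replicate 3 to 29461 in homozygous replicate 2.

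**Figure D4:**
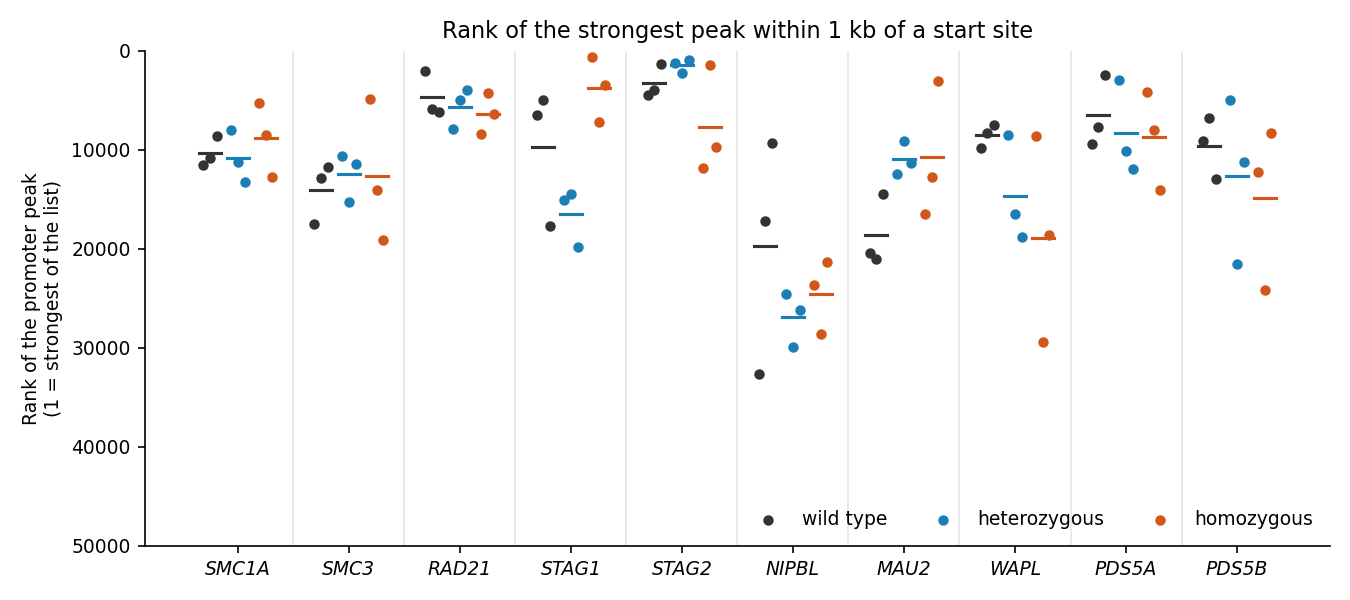
Rank of the strongest peak within 1 kb of a start site (vertical axis, 1 at the top is the strongest) for the 10 genes, 1 point per library and a bar at the mean of each genotype. The STAG1 points span 592 to 7180 in homozygous and 14513 to 19787 in heterozygous libraries, while NIPBL stays between 9332 and 32623.

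Strongest peaks were also counted around each gene. Within 1 Mb either side, with the gene and its flanks left out, STAG2 had 46, 44 and 45 strongest peaks in wild type and 39, 28 and 26 in homozygous libraries, 0.689 times as many. These include the stretch past STAG2 described above. NIPBL had 44, 42 and 48, and then 27, 31 and 38, or 0.716 times as many. PDS5B had 25, 27 and 27, and then 23, 15 and 23, or 0.772 times. The homozygous libraries lay wholly below the wild type libraries around these 3 of the 10 genes, compared with 18.3% of all coding genes with a peak in their surroundings. They lay wholly above around 1 of the 10, MAU2, with 63, 64 and 60 and then 65, 67 and 68, compared with 31.6%. At MAU2 itself the homozygous mean was the lower one. At STAG1 the ratio was 0.797 with overlap, and at the other 6 genes it lay between 0.979 and 1.10. The part of the surroundings in the counts at the genes was not tested.

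**Figure D5:**
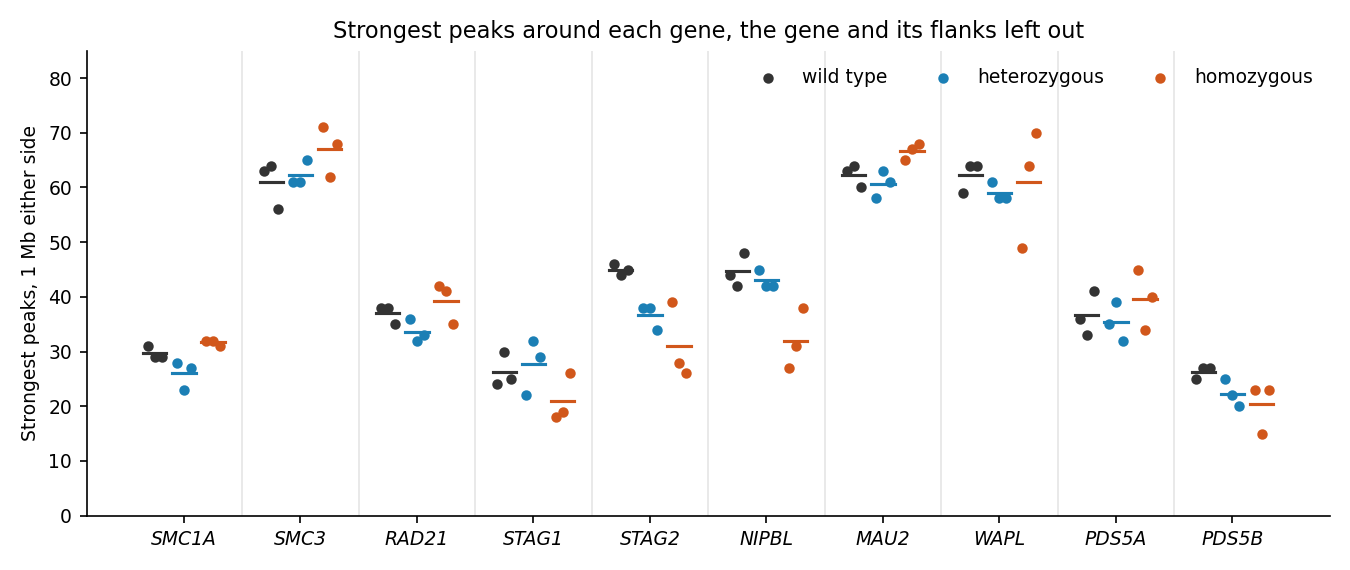
Strongest peaks within 1 Mb either side of each gene, the gene and its 10 kb flanks left out (vertical axis), 1 point per library and a bar at the mean of each genotype. Around STAG2 and NIPBL the homozygous points span 26 to 39 and 27 to 38, and the wild type points 44 to 46 and 42 to 48.

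Motifs in the 200 bp around each summit were counted as a description. The 11 promoters had a median GC content of 69.5% and the 38 other regions of 46.8%, compared with 65.5% and 49.0% for all regions near and away from a coding start. The CTCF core was found at 1 of the 11 promoters, that of STAG1, and at 2 of the 38 other regions, against 3.93% of all regions. A CTCF core 1 letter shorter, chosen after the sequences were seen, was found at 1 of 11 and 6 of 38, against 6.13% of all regions. The 6 were at SMC3 (42.7 kb), RAD21 (23.5 kb), NIPBL (−6.1 kb), MAU2 (46.2 kb) and PDS5B (53.3 and 64.5 kb). Over all regions away from a start, the shorter core was present in 10.9% of those in wild type only, against homozygous, and in 1.77% of those in homozygous only, against wild type. It was present in 9.82% of those found in all 9 libraries and in 6.83% of all regions away from a start. GATA matches were at 2 of 11 and 14 of 38 (32.5% of all regions) and RUNX matches at 2 of 11 and 10 of 38 (21.3%). AP-1 matches (TGACTCA or TGAGTCA) were at 0 of 11 and 4 of 38 (12.2%), and ETS matches at 2 of 11 and 1 of 38 (5.07%). Of the 107091 regions, 91632 lay away from a start, so shares over all regions are no yardstick for the 11 promoters. Among regions away from a start, the shares were 4.35% for the CTCF core, 35.7% for GATA and 22.5% for RUNX. They were 13.5% for AP-1 and 3.11% for ETS.

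Other genes of the pathway were read as 5 lists. For strongest peaks per gene, 0 genes of any list passed the exact permutation test after adjustment, and 0 had an unadjusted exact permutation p under 0.05. Over all genes tested the homozygous mean was above the wild type mean at 39.8% and below at 37.2%. It was above for 3 of 4 meiotic cohesin genes and below for 0, with the highest difference at STAG3, which had 3, 2 and 2 in wild type and 4, 3 and 5 in homozygous libraries. Of the 3 genes of the acetylation cycle, which locks and unlocks SMC3, 0 were above and 1 below: ESCO1, with 2, 2 and 2 and then 1, 2 and 1. Of 7 genes of mitotic protection and cleavage, 5 were above and 0 below. Of the 5 boundary factors 2 were above and 2 below, and CTCF itself had 1 in each of the 9 libraries. Of 14 condensin and SMC5/6 genes, 3 were above and 7 below, with NSMCE2 lowest at 16, 13 and 13 and then 12, 9 and 10 (adjusted p = 0.675 by the exact permutation test). At promoters, 1 of the 31 tested in these lists, that of CDCA5, which encodes sororin, had an unadjusted exact permutation p under 0.05, against 13.7% of all promoters. It ranked 28323, 29416 and 22576 in wild type and 18504, 4988 and 3928 in homozygous libraries, with an exact permutation p of 0.0143 that became 0.302 after adjustment.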

How the data were processed

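The data were 9 narrowPeak lists without headers, 1 per library. Per the submitters' processing notes, cutadapt, Bowtie2 2.2.9, Picard and MACS2 2.1.0 were used on hg19 (GRCh37), with no settings given. As deposited by the authors, each interval has a fold enrichment, a −log10 p, a −log10 q and a display score, and another column of summit offsets. The authors' values were used only to rank, filter or describe peaks within a list. Most intervals are 500 bp windows; in the joined ones, 17.2% to 19.2% of a list, values are averaged, so a broad peak may rank lower. Deposited offsets do not count from the interval start: the CTCF core lay within 50 bp of the interval centre in 2.03% to 3.20% of strongest peaks, and of start plus offset in 0.216% to 0.313%. Summits were therefore taken at the centre, or between the joined windows where offsets allowed.

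Peaks of chromosomes 1 to 22 and X were ranked by −log10 p. Tied peaks shared their mean rank and all peaks tied with place 50000 were kept, giving 50000 to 51932 per list, and a gene with no peak took rank 51933. Peaks were merged at an overlap of at least 1 bp. Genes came from GENCODE release 44 on GRCh37, and sequences were read from that genome, since the promoter table supplied was on another build. Tests were exact permutation tests over 280 splits, two-sided in effect, with Benjamini-Hochberg adjustment over all genes tested, computed with numpy 2.4.6 and pandas 2.3.3 and tested on simulated data. Named are all 10 genes, their promoters and every region that differed between a pair of genotypes, except 1 region that is not reported here. Genes of other lists are named where they passed a test or had the highest or lowest value. Regions named beyond this rule are said to have been singled out. The members, lists and alternatives were chosen with earlier results of these data known. Alternatives covered list length, ranking by fold, flank, overlap, promoter window and each library left out. The treatment of ties and the shorter CTCF core were chosen after seeing the data.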

Additional observations from a re-analysis of the deposited data

How the results depend on the processing

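The adjusted exact permutation tests passed 0 of the 10 genes for strongest peaks and for promoter rank under every alternative run. Because many genes would have to reach the smallest p for any to pass, these counts of 0 say little about single genes. Counts of regions depended on the list length. With 20000 peaks, 0 regions were in homozygous only and 0 in wild type only, 1 differed between heterozygous and wild type and 0 between homozygous and heterozygous. With 100000 peaks, 1 differed between heterozygous and wild type, and with full lists 8 were in wild type only, against homozygous. At a −log10 q of at least 5, 0 were in homozygous only and 1 differed between homozygous and heterozygous. Without flanks 0 were in homozygous only, because the 1 region lies in a flank. With STAG2 to its annotated end, 7 were in wild type only and 8 differed between homozygous and heterozygous. With at least 50% of a region covered, 1 differed between heterozygous and wild type. Where absence meant no peak in the full list, 2 were in wild type only and 1 differed between homozygous and heterozygous. With lists that share intervals counted as 1 source, 1 was in every wild type and heterozygous source and in no homozygous library. With tied peaks left out, 2 were in wild type only and 1 differed between heterozygous and wild type. Leaving out each library in turn gave 0 to 7 between heterozygous and wild type, the most without wild type replicate 3. The cause was not tested where none is named.

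Per gene, the homozygous minus wild type difference in strongest peaks did not change sign in 198 of 206 values over 22 alternatives, nor the promoter rank in 183 of 190 over 19. The main difference in strongest peaks was 0 at SMC1A, SMC3 and WAPL, so no value there could count as a change. With full lists it was 0.667 at SMC3 and 1 at WAPL. With shared lists as 1 source, homozygous libraries were set against wild type and heterozygous sources together. The difference in strongest peaks turned with 20000 peaks at STAG1 (1.33) and MAU2 (0.667), with 100000 at RAD21 (0.333) and PDS5A (0.667), with full lists at MAU2 (1.67) and PDS5A (2.67), and with ranking by fold at PDS5A (0.333). Leaving out 1 library moved MAU2 between −0.833 and 0.167. The promoter rank turned at RAD21 with ranking by fold (−4535) and at NIPBL with a 250 bp window (−1635). Leaving out 1 library moved it between −3432 and 301 at SMC1A, −4600 and 2544 at SMC3, −343 and 11302 at NIPBL, and −452 and 4532 at PDS5A.

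Replicate numbers are shared by the genotypes, and the main tests did not pair the libraries by them. Deviations from the genotype mean correlated between −0.245 and 0.113 over 9 same-numbered pairs, and between −0.219 and 0.344 over 18 others. Deviations within a genotype sum to 0 and some lists share intervals, so these values cannot exclude pairing. With the replicate number as a block (replicate block, 36 ways, smallest exact permutation p 0.0278), 0 of the 10 genes passed for strongest peaks and 0 for promoter rank. For any gene to pass there, most of all genes tested would have to reach that smallest p, so this outcome was all but fixed. Counting shared lists as 1 source gave no separate value for comparisons with heterozygous libraries, because one shared pair crosses the wild type and heterozygous genotypes. Depth is unknown, so a missing peak may lie under the caller's limit.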
